A study of Arabidopsis thaliana with 12 samples.

Results

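The LNK coactivator genes (LNK1, LNK2, LNK3 and LNK4) and the CYCLING DOF FACTOR genes (CDF1, CDF2, CDF3, CDF4 and CDF5) of Arabidopsis thaliana are described here across 2 genotypes and 2 media. The 9 genes, of 33201 rows per table, were chosen by locus name, with no threshold on any value. The set was, however, selected on the fold changes and q-values of these same tables, in the sense that they were known when it was proposed. The values, calls and tests below therefore describe these genes and are no independent evidence about them. RNA was sequenced from seedlings grown for 5 days, with 3 samples in each of 4 groups: the mutant nup1-1 on medium with abscisic acid (ABA), nup1-1 untreated, the wild type Col-0 on medium with ABA, and Col-0 untreated. All groups grew on MS medium. The lesion of the nup1-1 allele, its background, the ABA dose and the time of day of harvest were not given in the sources used here. NUP1 encodes a nuclear pore protein, and ABA is the plant hormone of seed dormancy and drought that holds back germination.

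The LNK proteins are clock coactivators that bind no DNA themselves. They are recruited by MYB-like factors of the CCA1, LHY and REVEILLE (RVE) family, and LNK1 and LNK2 with RVE8 activate clock genes that peak later in the day, such as PRR5 and TOC1. The CDF proteins are DOF zinc-finger repressors that hold down CONSTANS (CO) and FT, the genes that bring on flowering in long days, until the F-box proteins FKF1 and LKP2 together with GIGANTEA (GI) mark them for degradation. Transcripts of both families are known to oscillate and to be high in the early part of the day. A changed level and a shifted daily phase therefore cannot be told apart in any comparison below, since each group was sampled once. In RNA of seedlings, fewer cells of a type and less RNA per cell cannot be told apart either.

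In the deposited TAIR10 coordinates, LNK1 (AT5G64170) lies at chr5:25672466-25676746, LNK2 (AT3G54500) at chr3:20173619-20179027, LNK3 (AT3G12320) at chr3:3923735-3925465 and LNK4 (AT5G06980) at chr5:2167468-2169391. CDF1 (AT5G62430) lies at chr5:25069093-25070934, CDF2 (AT5G39660) at chr5:15878699-15881044, CDF3 (AT3G47500) at chr3:17504000-17506058, CDF4 (AT2G34140) at chr2:14413758-14414765 and CDF5 (AT1G69570) at chr1:26161528-26163496. The deposited locus of LNK2 also spans its neighbour RPB5E, an RNA polymerase subunit gene that has a row of its own at 0.195 to 0.335 FPKM and was not tested in any of the 4 tables. CDF5 shares its locus with FLORE (AT1G69572), a long noncoding RNA known as its antisense partner. Strand use was not stated in the sources used here, so reads from CDF5 and FLORE cannot be told apart in the stretch where they overlap. The same holds for AT5G64160, AT3G12340 and AT5G06990, which overlap the TAIR10.1 models of LNK1, LNK3 and LNK4. Of these only AT5G06990 was called: it had 6.03 FPKM on ABA and 2.92 FPKM untreated in nup1-1, and 5.98 FPKM in nup1-1 and 2.65 FPKM in Col-0 on ABA (q = 0.000754 and q = 0.000272 in the authors' deposited table).

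The 250 bases upstream of each annotated gene start were read from the RefSeq TAIR10.1 genome and searched on both strands for 4 motifs: the evening element AAAATATCT and the CCA1 binding site AAAAATCT, which clock MYB-like factors bind, the G-box CACGTG, and the ABA response element ACGTGGC. The ABA response element was found upstream of 3 of the 9 genes (LNK2, LNK3 and CDF2), against 3.37% of 27443 upstream windows of protein-coding genes. The G-box was found upstream of LNK3 and CDF2, against 6.49% of windows, and the CCA1 binding site upstream of CDF5, against 6.69%. No window of the 9 genes held the evening element, which 2.36% of windows held. The 4 stretches that hold a motif are printed 5′ to 3′ on the strand of their gene, with motif letters in capitals, because they show which of the ABA-linked and clock-linked motifs lie close to these genes.
LNK2, chr3:20179071-20179107, minus strand: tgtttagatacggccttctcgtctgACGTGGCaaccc
LNK3, chr3:3923317-3923404, plus strand: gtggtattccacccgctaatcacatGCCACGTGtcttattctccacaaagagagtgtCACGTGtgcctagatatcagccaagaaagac
CDF2, chr5:15878596-15878663, plus strand: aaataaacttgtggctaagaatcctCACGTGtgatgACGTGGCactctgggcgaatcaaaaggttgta
CDF5, chr1:26163883-26163940, minus strand: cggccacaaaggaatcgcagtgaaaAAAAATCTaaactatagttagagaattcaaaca
In LNK3 the ABA response element reads on the opposite strand and overlaps the first G-box. In LNK2 it begins 12 bases before the TAIR10.1 start, in LNK3 173 bases and in CDF2 66 bases before it. The TAIR10.1 starts of LNK3 (3923515) and CDF5 (26163715) lie upstream of the deposited ones (3923735 and 26163496). Counted from the deposited starts, the printed stretches of LNK3 and CDF5 lie outside a window of 250 bases. Their motif hits therefore depend on the annotation used. A match describes letters in these windows and does not show that a factor binds there.

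**Figure D1:**
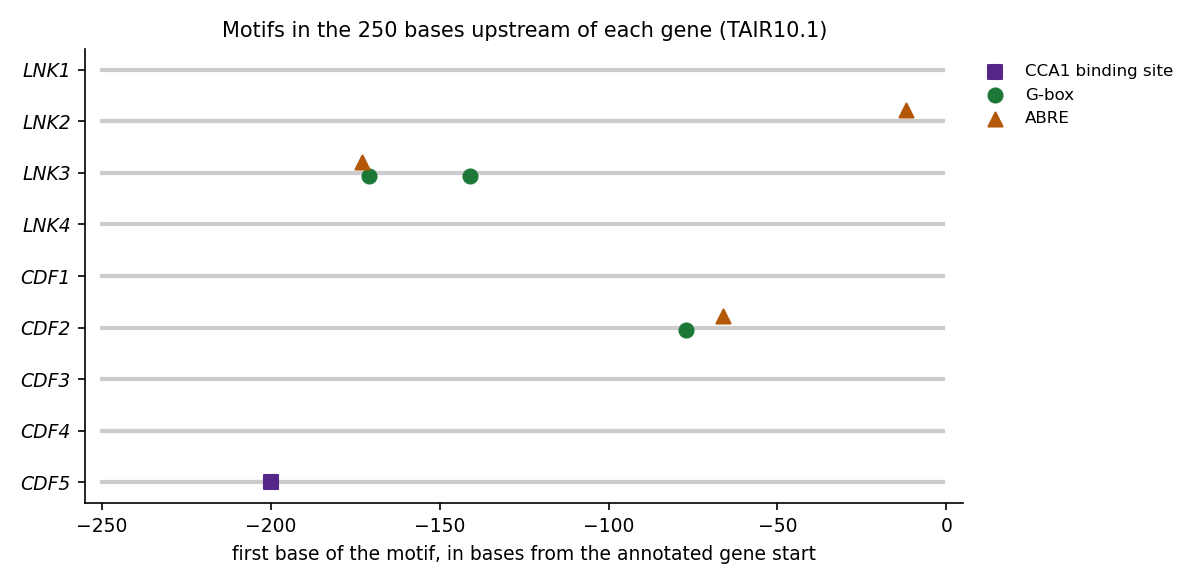
Motif positions in the 250 bases upstream of the 9 genes, in bases from the annotated gene start on the horizontal axis, with 1 grey line per gene. Triangles (ABA response element) stand on LNK2, LNK3 and CDF2, circles (G-box) on LNK3 and CDF2, and the square (CCA1 binding site) on CDF5.

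The authors deposited 1 value per group and gene, in FPKM (fragments per kilobase of transcript, scaled to the mapped fragments of the library), so no value per sample is printed and group values carry no SD or n. Errors after ± are standard errors of log2 fold changes, rebuilt from the deposited test statistics, and a gene was called changed at a q-value (adjusted p) under 0.05 in the authors' deposited table. All 9 genes were marked as tested in all 4 tables. The smallest p-value listed in each table was 5e-05, and genes at that limit share 1 q-value per table, which does not rank them. The labels name no separate sowings for the 3 samples of a group, so p-values measure only the spread between these samples. Depth per sample is unknown. NUP1 itself stood at 7.47 FPKM in nup1-1 and 13.8 FPKM in Col-0 on ABA, a called difference (q = 0.000272 in the authors' deposited table). Without ABA it stood at 9.23 FPKM in nup1-1 and 12.8 FPKM in Col-0, with no call (q = 0.243 in the authors' deposited table). Of 9 reference genes such as PP2AA3 and UBC21, ACT2 alone was called: it was lower in nup1-1 on ABA, both against untreated nup1-1 and against Col-0 on ABA.

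Untreated Col-0 seedlings had the highest LNK value in LNK2 (28.5 FPKM) and the highest CDF value in CDF3 (31.7 FPKM). Below them came CDF1 with 21.0, LNK1 with 13.9, LNK4 with 12.1, CDF2 with 8.62, LNK3 with 4.55, CDF5 with 3.55 and CDF4 with 3.04 FPKM. In nup1-1 on ABA the order was LNK4 (10.5 FPKM), LNK1 (6.02), LNK2 (5.1), CDF3 (4.6), LNK3 (4.42), CDF2 (3.28), CDF4 (2.36), CDF1 (1.95) and CDF5 (0.152). LNK2 thus stood behind LNK4 and LNK1 in that group, and CDF1 behind CDF2 and CDF4. Which neighbours in these orders differ beyond the spread between samples was not tested, because a level has no error here. The 5 CDF values summed to 12.3 FPKM in nup1-1 on ABA and 33.7 FPKM in untreated nup1-1, and, in the separately normalized Col-0 table, to 22.4 FPKM on ABA and 68.0 FPKM untreated. The 4 LNK values summed to 26.0 FPKM on ABA and 40.8 FPKM untreated in nup1-1, and to 40.0 FPKM on ABA and 59.0 FPKM untreated in Col-0.

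**Figure D2:**
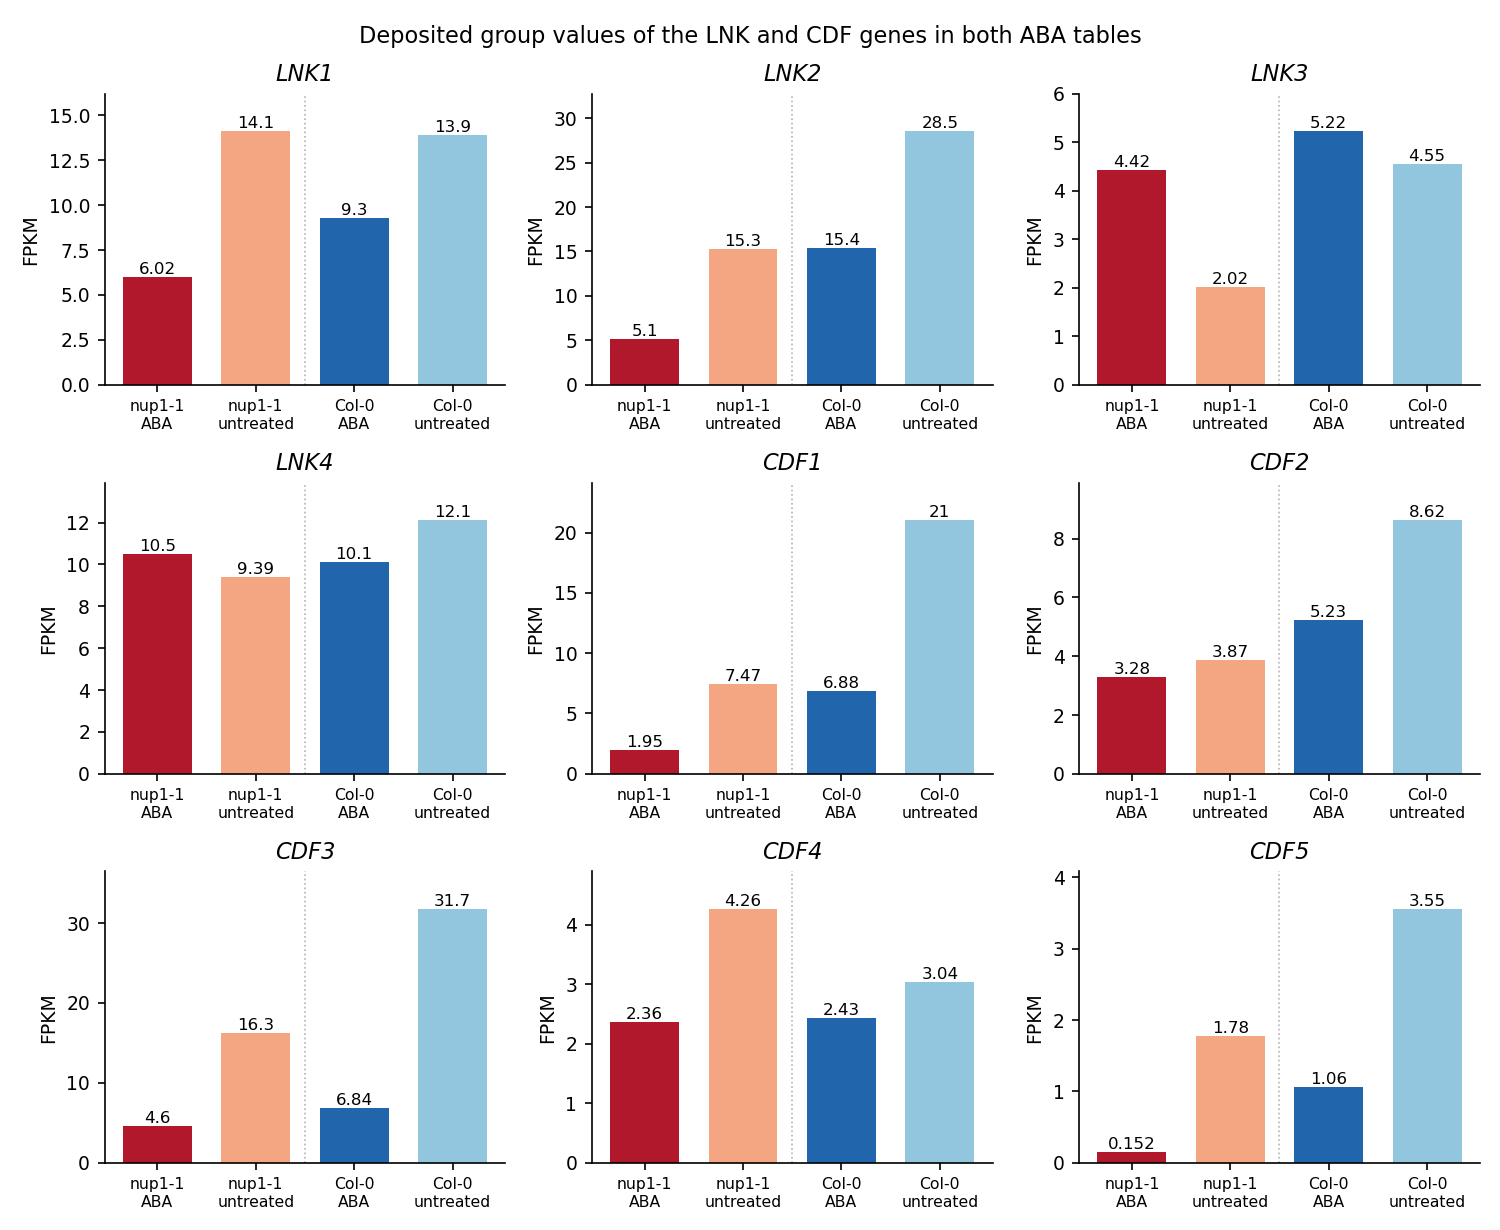
Deposited FPKM values (vertical axes, each starting at 0, with a scale of its own per gene) of the 9 genes in nup1-1 and Col-0 seedlings on ABA and untreated, from the ABA tables. Bars are 1 value per group without error bars, and the genotypes come from separately normalized tables. CDF1, CDF3 and CDF5 are lower on ABA than untreated in both genotypes, while LNK3 in nup1-1 is higher on ABA, at 4.42 FPKM, than untreated, at 2.02 FPKM.

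In nup1-1, LNK1, LNK2, CDF1, CDF3, CDF4 and CDF5 fell on ABA, LNK3 rose, and LNK4 and CDF2 did not pass the test. That is 1 gene higher and 6 lower of 9, where 46.6% of all tested genes were called (21.2% higher and 25.3% lower). The median log2 fold change of the 9 genes was -1.23, against 0.00 over all tested genes.

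LNK1, a coactivator of evening clock genes, had 6.02 FPKM in nup1-1 on ABA and 14.1 FPKM in untreated nup1-1, 2.34-fold lower on ABA (log2 fold change -1.23 ± 0.17). LNK2, its closest partner in that role, had 5.1 FPKM on ABA and 15.3 FPKM untreated in nup1-1, 3.00-fold lower (-1.59 ± 0.17). Both calls had q = 0.000208 in the authors' deposited table. LNK3 went the other way, with 4.42 FPKM on ABA and 2.02 FPKM untreated in nup1-1, a 2.19-fold rise (1.13 ± 0.28, q = 0.000399 in the authors' deposited table). LNK4, the remaining family member, had 10.5 FPKM on ABA and 9.39 FPKM untreated (0.16 ± 0.19, q = 0.518 in the authors' deposited table). In the windows read from TAIR10.1 starts, the ABA response element was found upstream of LNK2 and LNK3 and not of LNK1 or LNK4. Its part in these values was not tested.

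CDF1, a repressor of CO and FT that recruits the corepressor TOPLESS, had 1.95 FPKM in nup1-1 on ABA and 7.47 FPKM in untreated nup1-1, 3.84-fold lower on ABA (-1.94 ± 0.26). CDF3, a repressor of flowering that is also known from cold and drought tolerance, had 4.6 FPKM on ABA and 16.3 FPKM untreated, 3.55-fold lower (-1.83 ± 0.19). Both had q = 0.000208 in the authors' deposited table. CDF4, known from leaf senescence, had 2.36 FPKM on ABA and 4.26 FPKM untreated (-0.85 ± 0.29, q = 0.012 in the authors' deposited table). CDF2, which acts with CDF1 on flowering and is also known to affect microRNA processing, had 3.28 FPKM on ABA and 3.87 FPKM untreated and was not called (-0.24 ± 0.22, q = 0.406 in the authors' deposited table).

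CDF5, a repressor of flowering known also to promote hypocotyl growth, was close to 0 in nup1-1 on ABA, at 0.152 FPKM, against 1.78 FPKM in untreated nup1-1. The call had q = 0.0237 in the authors' deposited table, and the log2 fold change of -3.55 is imprecise: its standard error was 0.82 from the test statistic and 1.37 from the p-value. With 1 FPKM added to both values it was -1.27, and at a q under 0.01 the calls of CDF4 and CDF5 were lost. FLORE, the antisense RNA of CDF5, also fell on ABA in nup1-1, with 2.69 FPKM on ABA and 4.78 FPKM untreated (q = 0.0306 in the authors' deposited table).

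In Col-0, ABA lowered LNK2, CDF1, CDF2, CDF3 and CDF5, and no member was called higher. That is 5 of 9 genes called, where 15.6% of all tested genes were called (7.83% higher and 7.79% lower). LNK2 had 15.4 FPKM on ABA and 28.5 FPKM untreated in Col-0, 1.85-fold lower (-0.89 ± 0.22, q = 0.00133 in the authors' deposited table). CDF3 had the largest fold among the members here, with 6.84 FPKM on ABA and 31.7 FPKM untreated, 4.64-fold lower (-2.21 ± 0.22). CDF1 had 6.88 FPKM on ABA and 21.0 FPKM untreated, 3.06-fold lower (-1.61 ± 0.23); both these calls had q = 0.000716 in the authors' deposited table. Values for these repressors were thus lower on ABA in both genotypes.

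CDF2 had 5.23 FPKM on ABA and 8.62 FPKM untreated in Col-0 (-0.72 ± 0.23, q = 0.0118 in the authors' deposited table). CDF5 had 1.06 FPKM on ABA and 3.55 FPKM untreated (-1.74 ± 0.49, q = 0.0255 in the authors' deposited table). These 2 calls were lost at a q under 0.01, and with 1 FPKM added to both values CDF5 stood at -1.14. LNK1 stood just outside the threshold, with 9.30 FPKM on ABA and 13.9 FPKM untreated in Col-0 (-0.58 ± 0.22, q = 0.0528 in the authors' deposited table). LNK3 (0.20 ± 0.27), LNK4 (-0.26 ± 0.24) and CDF4 (-0.33 ± 0.31) were not called, with q-values between 0.604 and 0.760 in the authors' deposited table. FLORE stood at 2.02 FPKM on ABA and 2.17 FPKM untreated in Col-0, without a call (q = 0.968 in the authors' deposited table).

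**Figure D3:**
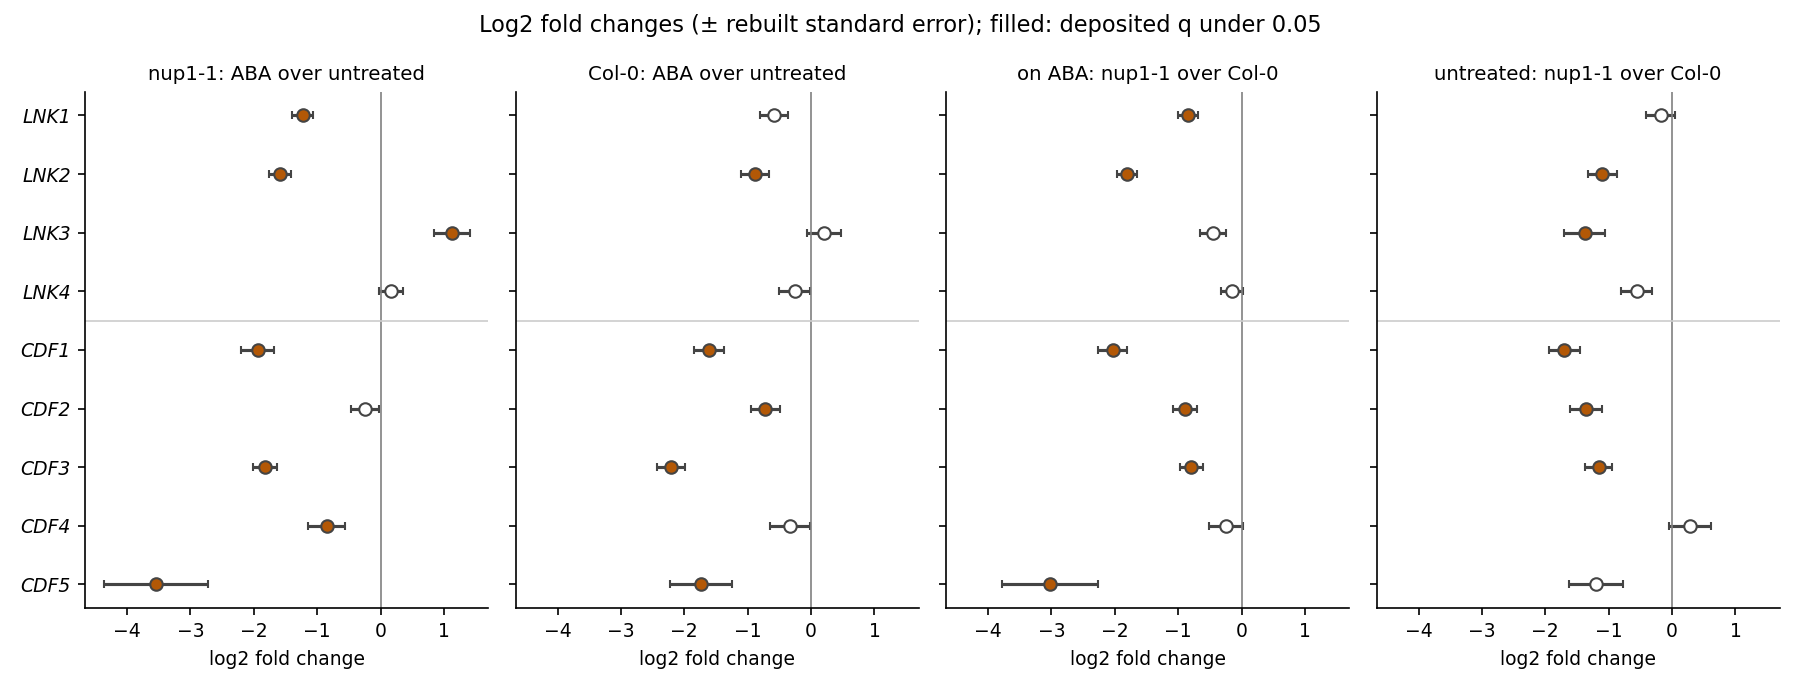
Log2 fold changes (horizontal axes) of the 9 genes, 1 panel per comparison, with bars of ± 1 rebuilt standard error; filled points were called at a deposited q under 0.05. LNK3 on ABA in nup1-1, at 1.13, is the only filled point right of 0.

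Markers of the state of the seedlings moved with ABA in both genotypes. In nup1-1, 10 of 10 green tissue markers (light-harvesting, photosystem and carbon fixation genes) were lower on ABA and summed to 7310 FPKM on ABA and 39600 FPKM untreated, and 7 of 11 seed storage markers were higher and summed to 5820 and 12.6 FPKM. In Col-0, 9 of 10 green tissue markers were lower and summed to 25100 FPKM on ABA and 54200 FPKM untreated, and 9 of 11 seed storage markers were higher and summed to 3970 and 30.6 FPKM. No marker of either list was listed at 0 in any group. The part of seedling stage in the values of the LNK and CDF genes was not tested.

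Between the genotypes without ABA, LNK2, LNK3, CDF1, CDF2 and CDF3 were lower in nup1-1. That is 5 of 9 genes called, all lower, where 6.60% of all tested genes were called (2.68% higher and 3.92% lower). The median log2 difference of the 9 genes was -1.16, against -0.02 over all tested genes. CDF1 had 6.50 FPKM in untreated nup1-1 and 21.1 FPKM in untreated Col-0, 3.25-fold lower (-1.70 ± 0.24). CDF2 had 3.37 FPKM in nup1-1 and 8.65 FPKM in Col-0 (-1.36 ± 0.25), and CDF3 had 14.2 FPKM in nup1-1 and 31.9 FPKM in Col-0 (-1.16 ± 0.22). LNK2 had 13.3 FPKM in nup1-1 and 28.6 FPKM in Col-0, 2.15-fold lower (-1.10 ± 0.23). These 4 calls had q = 0.00198 in the authors' deposited table.

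LNK3, the member with the lowest value among the LNK genes in all 4 groups, had 1.75 FPKM in untreated nup1-1 and 4.56 FPKM in untreated Col-0, 2.60-fold lower (-1.38 ± 0.32, q = 0.00729 in the authors' deposited table). LNK1 had 12.3 FPKM in nup1-1 and 13.9 FPKM in Col-0 (-0.18 ± 0.23, q = 0.758 in the authors' deposited table), and LNK4 8.19 FPKM in nup1-1 and 12.1 FPKM in Col-0 (-0.56 ± 0.24, q = 0.181 in the authors' deposited table). CDF5 had 1.55 FPKM in nup1-1 and 3.56 FPKM in Col-0, a log2 difference of -1.2 ± 0.43 that was not called (q = 0.135 in the authors' deposited table). CDF4 alone had the higher value in nup1-1, with 3.7 FPKM and 3.05 FPKM in Col-0, without a call (0.28 ± 0.33, q = 0.748 in the authors' deposited table). FLORE stood at 4.16 FPKM in nup1-1 and 2.18 FPKM in Col-0 (q = 0.344 in the authors' deposited table), so CDF5 and its antisense RNA had opposite signs here, neither of them called. The seed storage markers summed to 11.0 FPKM in untreated nup1-1 and 30.7 FPKM in untreated Col-0, with 3 of 11 lower. The green tissue markers summed to 34500 FPKM in nup1-1 and 54300 FPKM in Col-0, with 0 of 10 called in the authors' deposited table and 2 at an unadjusted p under 0.05.

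On ABA, LNK1, LNK2, CDF1, CDF2, CDF3 and CDF5 were lower in nup1-1 than in Col-0. That is 6 of 9 genes called, all lower, where 38.7% of all tested genes were called (15.4% higher and 23.3% lower). The members' median was -0.84, against -0.01 over all tested genes. LNK2 had 5.07 FPKM in nup1-1 and 17.7 FPKM in Col-0, 3.5-fold lower (-1.81 ± 0.16). CDF1 had 1.93 FPKM in nup1-1 and 7.91 FPKM in Col-0, 4.09-fold lower (-2.03 ± 0.23). The log2 differences of CDF2 (-0.89 ± 0.19), LNK1 (-0.84 ± 0.16) and CDF3 (-0.79 ± 0.18) were smaller. All 5 had q = 0.000272 in the authors' deposited table.

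CDF5 had 0.151 FPKM in nup1-1 and 1.23 FPKM in Col-0 on ABA, an imprecise log2 difference of -3.02 (q = 0.0161 in the authors' deposited table), whose standard error was 0.76 from the statistic and 1.07 from the p-value. With 1 FPKM added to both values it was -0.95, and the call was lost at a q under 0.01. LNK3 had 4.39 FPKM in nup1-1 and 5.99 FPKM in Col-0 (-0.45 ± 0.21, q = 0.0768 in the authors' deposited table). LNK4 had 10.4 FPKM in nup1-1 and 11.6 FPKM in Col-0 (-0.15 ± 0.17), and CDF4 had 2.34 FPKM in nup1-1 and 2.8 FPKM in Col-0 (-0.25 ± 0.27), both without a call. LNK4 was the only member of the 9 that no comparison called. The green tissue markers summed to 7250 FPKM in nup1-1 and 28900 FPKM in Col-0 on ABA, with 10 of 10 lower. The seed storage markers summed to 5780 FPKM in nup1-1 and 4560 FPKM in Col-0 on ABA, with 4 of 11 higher and 4 lower. The part of both marker lists in these differences was not tested. The comparisons share groups of samples in pairs, so a gene called in several of them does not have that many independent calls.

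The ABA response was then set between the genotypes for each gene with a Wald test (2-sided) of the difference in log2 fold change, adjusted over 19487 genes; the nup1-1 and Col-0 responses have no sample in common. None of the 9 genes passed (adjusted q between 0.0733 and 0.629), where 16.4% of all genes in the test were called (4.71% higher and 11.7% lower in nup1-1). At an unadjusted p under 0.05 there were 3, LNK1, LNK2 and LNK3. The genotype tables also gave a count of 0, but they hold the same groups, so this is no separate check. Standard errors taken from the p-values gave 0 too. Those errors come out larger where p stands at its smallest listed value of 5e-05, as for LNK1 and LNK2 in nup1-1, so that count is no separate check either. The response in nup1-1 minus that in Col-0 was -0.70 for LNK2 on the log2 scale, with a 95% interval from -1.25 to -0.14, and -0.65 for LNK1, with an interval from -1.19 to -0.11. For LNK3 it was 0.93, with an interval from 0.17 to 1.69. These unadjusted intervals leave out 0, and after adjustment the q-values were 0.0733 for LNK2, 0.0891 for LNK1 and 0.0831 for LNK3.

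LNK4, with 0.42 and an interval from -0.18 to 1.01, had the same sign as LNK3. Among the CDF genes the differences were -0.33 for CDF1 (interval -1.01 to 0.36), 0.48 for CDF2 (-0.15 to 1.11), 0.38 for CDF3 (-0.19 to 0.96) and -0.53 for CDF4 (-1.36 to 0.31). CDF5 had the largest difference, -1.81, and the widest interval, from -3.68 to 0.06. Its deposited p-values for ABA were above the smallest listed value and still gave larger standard errors than the statistic. They were 1.37 against 0.82 in nup1-1 and 0.59 against 0.49 in Col-0, and with them the interval would be wider. The intervals of LNK4 and of all 5 CDF genes span 0 and also hold differences near 1 log2 unit, so equal responses were not shown. In the same test, the ABA response of 7 of 10 green tissue markers was lower in nup1-1, and that of 6 of 10 seed storage markers was higher and of 1 lower. The calls of SESA1 and OLEO1 among the seed storage markers are uncertain. Their log2 fold changes on ABA in nup1-1 were 7.14 and 9.61, with p = 0.00105 and p = 0.0002 in the authors' deposited table. Those p-values imply larger standard errors than the rebuilt ones used in the test.

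**Figure D4:**
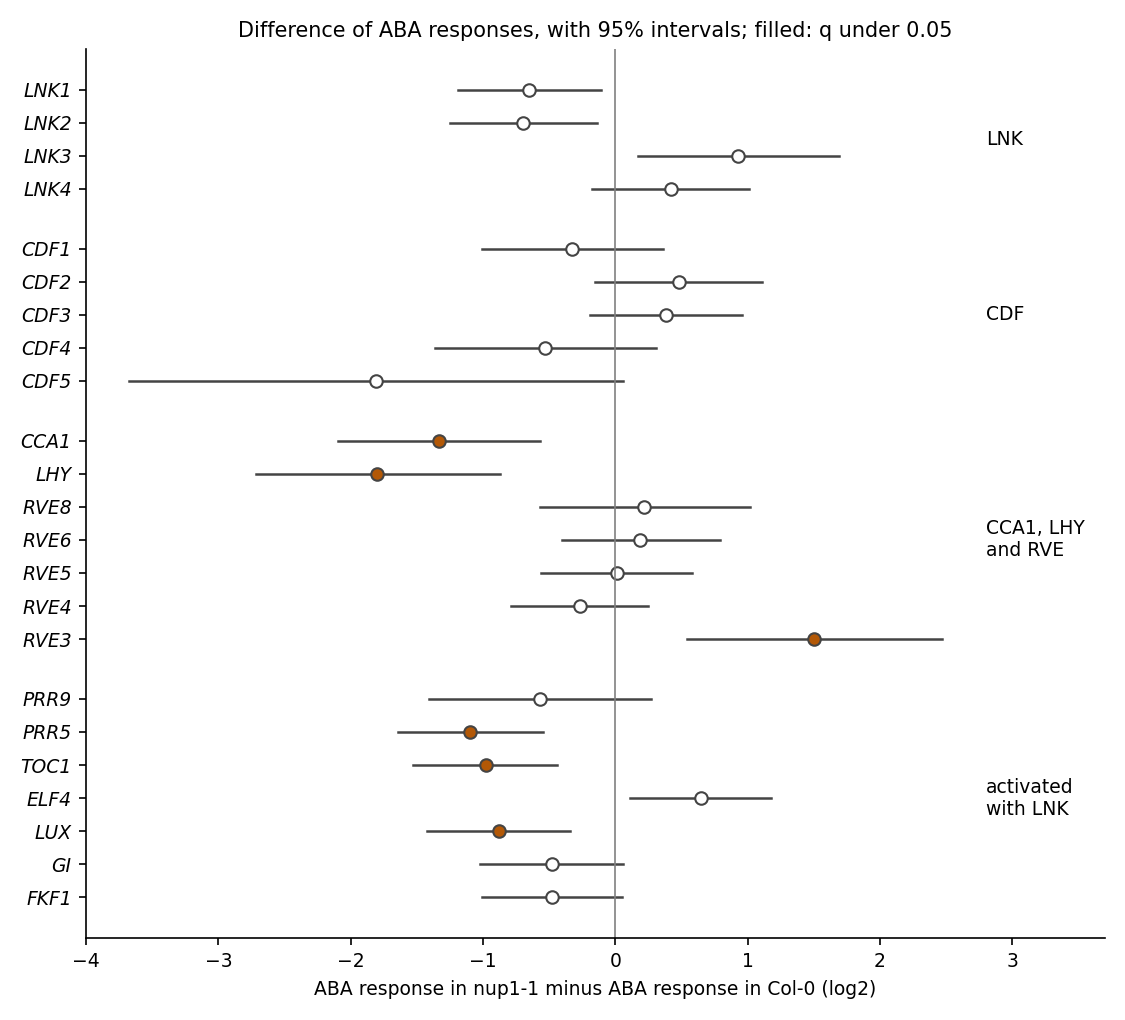
ABA response in nup1-1 minus ABA response in Col-0 on the log2 scale (horizontal axis), with 95% intervals, for the LNK and CDF genes, the MYB-like LNK partners and clock genes activated with LNK; filled points passed at an adjusted q under 0.05. All 9 points of the LNK and CDF genes are open, and LNK3 and LNK1 lie on opposite sides of 0.

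The MYB-like factors that recruit LNK proteins were measured alongside. Of 7 (CCA1, LHY, RVE3, RVE4, RVE5, RVE6 and RVE8), 4 were lower in untreated nup1-1 than in untreated Col-0 and none was higher, against 4 at an unadjusted p under 0.05. On ABA, 4 were lower and 1, RVE3, was higher. Over all tested genes, 3.92% were lower and 2.68% higher in untreated nup1-1, and 23.3% lower and 15.4% higher on ABA. RVE8, the factor best known to recruit LNK1 and LNK2, had 1.2 FPKM in untreated nup1-1 and 8.48 FPKM in untreated Col-0, 7.06-fold lower, and 1.93 and 11.7 FPKM on ABA (q = 0.00198 and q = 0.000272 in the authors' deposited table). ABA raised 2 of the 7 in Col-0 and lowered none, where 7.83% of all tested genes were higher. In nup1-1 it raised RVE3 and lowered CCA1 and RVE4, where 21.2% were higher and 25.3% lower. RVE3 had 12.5 FPKM on ABA and 1.25 FPKM untreated in Col-0, and 24.5 and 0.864 FPKM in nup1-1 (q = 0.000716 and q = 0.000208 in the authors' deposited table). LHY also rose on ABA in Col-0, to 3.72 FPKM, against 1.63 FPKM untreated (q = 0.000716 in the authors' deposited table). In nup1-1, LHY stood at 0.363 FPKM on ABA and 0.553 FPKM untreated without a call (q = 0.161 in the authors' deposited table).

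Of 7 clock genes activated with LNK coactivators (PRR5, PRR9, TOC1, ELF4, LUX, GI and FKF1), none was called between untreated nup1-1 and untreated Col-0 in the authors' deposited table, against 2 at an unadjusted p under 0.05. On ABA, 4 were lower in nup1-1 and none was higher. Over all tested genes, 6.60% were called untreated and 38.7% on ABA, so 0 of 7 stands near the untreated share. PRR5, a target of RVE8 and LNK, had 12.5 FPKM in nup1-1 and 37.6 FPKM in Col-0 on ABA, 3.00-fold lower (q = 0.000272 in the authors' deposited table). ABA lowered 5 of the 7 in nup1-1 and raised ELF4 to 396 FPKM, against 310 FPKM untreated (q = 0.0478 in the authors' deposited table); in Col-0 it lowered PRR5, GI and FKF1. ABA lowered 25.3% of all tested genes in nup1-1 and 7.79% in Col-0.

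Clock genes were also listed by the time of day at which they are known to peak, in lists that share CCA1, LHY, RVE8, PRR5 and others with those above. Of 8 morning-phased genes, 5 were lower in untreated nup1-1 than in untreated Col-0 and 8 were lower on ABA, with median log2 differences of -1.44 and -2.55. Of 9 evening-phased genes, none was called in the untreated comparison (2 at an unadjusted p under 0.05), and on ABA 4 were lower and 1, BOA, a relative of LUX, was higher, with medians of 0.13 and -0.28. Over all tested genes, 3.92% were lower untreated and 23.3% on ABA. The LNK and CDF genes, which are known to peak early in the day, had medians of -1.16 untreated and -0.84 on ABA. Whether the lists differ from each other was not tested.

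GI, FKF1, ZTL and LKP2, whose products act on CDF protein stability or in the same F-box family, showed 0 calls of 4 between the genotypes on either medium in the authors' deposited table, and 0 at an unadjusted p under 0.05. Over all tested genes, 6.60% were called untreated and 38.7% on ABA. ABA lowered GI, FKF1 and ZTL in nup1-1 and GI and FKF1 in Col-0, where 25.3% and 7.79% of all tested genes were lower. GI had 11.8 FPKM on ABA and 39.2 FPKM untreated in nup1-1, 3.32-fold lower, and 12.3 and 29.4 FPKM in Col-0, 2.39-fold lower (q = 0.000208 and q = 0.000716 in the authors' deposited table).

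CO, the flowering activator gene that CDF proteins repress, was lower on ABA in both genotypes, as were CDF1, CDF3 and CDF5. It had 0.791 FPKM on ABA and 2.96 FPKM untreated in nup1-1 (-1.90 ± 0.34), and 0.892 and 2.75 FPKM in Col-0 (-1.62 ± 0.33), with q = 0.000208 and q = 0.00243 in the authors' deposited table. Between untreated nup1-1 and untreated Col-0, where CDF1, CDF2 and CDF3 were lower, CO had 2.58 and 2.76 FPKM and was not called (q = 0.926 in the authors' deposited table). FT, named here after its values were seen, had 1.58 FPKM in untreated nup1-1 and 0.0732 FPKM in untreated Col-0, without a call (q = 0.499 in the authors' deposited table). FT was listed at 0 in nup1-1 on ABA, against 1.82 FPKM in untreated nup1-1 (q = 0.000208 in the authors' deposited table). The FT values are low, and with a value of 0 this call has no log2 fold change or standard error. FBH3, a bHLH activator of CO, had 38.2 FPKM on ABA and 11.8 FPKM untreated in nup1-1, and 25.1 and 8.80 FPKM in Col-0, both called higher (q = 0.000208 and q = 0.000716 in the authors' deposited table). Over all tested genes, ABA raised 21.2% in nup1-1 and 7.83% in Col-0. Its relatives FBH1, FBH2 and FBH4 were not called on ABA in either genotype. Between nup1-1 and Col-0 on ABA, FBH1 was called lower and FBH3 higher (q = 0.002 and q = 0.0199 in the authors' deposited table).

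Genes with the pattern most like LNK3 and CDF5, the members of each family with the largest difference of ABA responses, were sought among 19181 genes by the Euclidean distance over the 4 log2 fold changes. Nearest to LNK3 was GPX7, a glutathione peroxidase gene, at a distance of 0.122, with log2 fold changes of 1.17 on ABA in nup1-1, 0.27 on ABA in Col-0, -0.41 between genotypes on ABA and -1.30 between untreated genotypes. AT1G47540 and AT4G27652 followed, at 0.262 and 0.303. Nearest to CDF5 were AT1G07560, AT1G78230 and AT4G33666, at 0.269, 0.273 and 0.485. The 4 fold changes share groups, so this likeness rests on few independent values. Their standard errors were 0.21 to 0.32 for LNK3 and 0.43 to 0.82 for CDF5, so the order of the near genes is not resolved.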

How the data were processed

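Values came from 4 comparison tables of seedling RNA-seq. For each gene they list 1 value per group, a test statistic and its deposited p-value and q-value. Group values are FPKM as the authors deposited them, with FastQC, Trimmomatic, TopHat and TAIR10 named in the submitters' processing notes; versions and the program that wrote the tables were not given in the sources used here. Each table was normalized separately (the Col-0 ABA group differs by 0.20 on the log2 scale between tables), so levels are compared within a table only. Depth per sample is unknown. The deposited statistic is a score that, times a fitted factor of 1.740 to 1.745, gives a normal deviate matching the deposited p-value in the median gene. The log2 fold change divided by that deviate gave standard errors. In 119 to 471 genes per table, with p above its smallest listed value, the p-value gave an error over 1.5 times larger. For such genes the rebuilt errors are smaller than the deposited p-value implies. Log2 fold changes were taken anew from those FPKM values. The difference of ABA responses was a Wald test with Benjamini-Hochberg adjustment over genes with at least 1 FPKM in the highest group (Python 3.11.15, scipy 1.17.1). A run on simulated data with normal errors and no lower limit on p checked the code only, not the rebuilt standard errors. In 32208 of 33201 rows the name matched a TAIR10.1 locus tag. Upstream windows were read from the RefSeq TAIR10.1 genome with its own gene starts; 49.9% of these rows share a start or end with TAIR10.1 to the base. All 9 members are named; list genes are named by the largest absolute log2 fold change among called ones, up to 4 per list and comparison, and 3 like genes for 1 member of each family. Members and lists were chosen with earlier results of these data known.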

Additional observations from a re-analysis of the deposited data

Results flagged for a closer look

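None of the LNK or CDF genes is included here, as none passed the test of the difference of ABA responses. Among the clock and DOF genes measured beside them, 14 had an ABA response that differed between nup1-1 and Col-0 by that Wald test, adjusted over 19487 genes, which called 16.4% of all genes. Values are the log2 ABA response in nup1-1 minus that in Col-0. Of the 7 MYB-like LNK partners, LHY differed by -1.80 ± 0.47 (q = 0.0019) and CCA1 by -1.33 ± 0.39 (q = 0.00675), while RVE3 differed by 1.5 ± 0.49 (q = 0.0191). These differences rest partly on levels under 1 FPKM in nup1-1. LHY had 0.363 FPKM on ABA and 0.553 FPKM untreated there, CCA1 0.864 FPKM on ABA and RVE3 0.864 FPKM untreated. Of the 7 clock genes activated with LNK coactivators, PRR5 differed by -1.10 ± 0.28 (q = 0.00113), TOC1 by -0.98 ± 0.28 (q = 0.00458) and LUX by -0.88 ± 0.27 (q = 0.0119). Of the 23 other DOF genes in the test, 5 were called, all lower in nup1-1, where 11.7% of all genes were lower and 4.71% higher. ADOF1 differed by -1.5 ± 0.30 (q = 2.12e-05), OBP4 by -1.37 ± 0.27 (q = 1.14e-05), TMO6 by -0.91 ± 0.29 (q = 0.0124), DOF4.6 by -0.84 ± 0.28 (q = 0.0199) and ADOF2, named to complete the count, by -0.83 ± 0.28 (q = 0.0211). Of the 8 morning-phased clock genes, 5 were called: LHY and CCA1 as above, RVE1 with -1.89 ± 0.35 (q = 1.54e-06), RVE7 with -1.81 ± 0.30 (q = 1e-07) and RVE2 with -0.88 ± 0.28 (q = 0.0158). Of the 9 evening-phased clock genes, 3 were called, PRR5, TOC1 and LUX as above. None of the 4 genes of CDF degradation was called, and none of the 5 photoperiod genes in the test.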

How the results depend on the processing

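The count of LNK and CDF genes called for ABA in Col-0 was 5 at a q under 0.05 and 3 at a q under 0.01, where CDF2 and CDF5 were lost. The other 20 recomputed counts stayed within 1.5 times, under the stricter q, adjustment over genes with at least 1 FPKM, centring on all genes or on 9 reference genes, and, for the difference of ABA responses, no level filter, standard errors from the p-value and the genotype tables. Of 225 values of single genes none changed sign; 5 calls were lost, all at a q under 0.01, and 9 values moved by more than a standard error with a pseudocount of 1 FPKM. Of these, CDF5 moved by over 1.5 times in 3 comparisons, to -1.27 from -3.55 on ABA in nup1-1, to -1.14 from -1.74 on ABA in Col-0 and to -0.95 from -3.02 between genotypes on ABA. No paired analysis was possible because each table holds 1 value per group, and leaving out single samples was not run for the same reason. Low FPKM limits CDF5 most.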

Other observations

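The rest of the DOF family, 31 genes outside CDF1 to CDF5, was measured as a wider frame for the CDF genes. On ABA in nup1-1, 18 of 24 tested DOF genes were lower and none was higher, where 25.3% of all tested genes were lower, with a median log2 fold change of -0.86. ADOF1 had 5.39 FPKM on ABA and 26.3 FPKM untreated in nup1-1, 4.87-fold lower, and COG1, a close relative of the CDF genes, had 4.95 and 12.4 FPKM, 2.52-fold lower (q = 0.000208 and q = 0.000579 in the authors' deposited table). In Col-0, ABA lowered 4 of 23 (OBP2, ADOF1, SCAP1 and DOF2.2) and raised none, where 7.79% of all tested genes were lower and 7.83% higher. Between nup1-1 and Col-0 on ABA, 15 of 24 were lower and none was higher, where 23.3% of all tested genes were lower.

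Without ABA, 0 of 23 tested DOF genes outside the CDF group were called between nup1-1 and Col-0 in the authors' deposited table, with 2 at an unadjusted p under 0.05 and a median log2 difference of 0.04; 6.60% of all tested genes were called. Of the 5 CDF genes, 3 were lower in the same table, with a median of -1.20. Whether the 2 groups of DOF genes differ was not tested.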
